A study of Mus musculus with 3 samples.

Results

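The *Aqp4*-positive epithelial cells of the sulcus and Hensen side were 514 of the 14378 cochlear cell barcodes kept within fixed limits on genes and mitochondrial RNA. A barcode is the tag of 1 droplet, and a UMI (unique molecular identifier) stands for 1 captured RNA molecule. Barcodes were kept with 200 to 6000 genes and at most 15% of their UMIs from mitochondrial genes. A kept barcode was called *Aqp4*-gated where it had at least 1 *Aqp4* UMI, UMIs in at least 2 of *Aqp4*, *Agr3*, *Pcdh17*, *Gata2* and *Nckap5*, no *Sox2* UMI, and less than 0.5% of its UMIs from *Ocm*. The cells were thus chosen by their measured counts of these 7 genes, whose levels are described below without a test. The gate held 157 of 1662 barcodes at P14 (14 days after birth), 191 of 5651 in P28 (28 days) replicate 1 and 166 of 7065 in P28 replicate 2. All other barcodes within the same limits served as the comparison.

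The study profiled dissociated cochleae of C57BL/6J mice (C57/B6 in the sample labels) without sorting, with 1 library at P14 and 2 at P28. Each library pooled 14 cochleae of 7 mice, no agent or allele was given to any group, and the sex makeup of each pool is not given in the sources used here. Cells were captured with the 10x Chromium 3′ kit v3.1, and whole deposited libraries held 10125255 UMIs in 2513 barcodes at P14, 35485894 UMIs in 11948 barcodes in P28 replicate 1 and 37530956 UMIs in 18196 barcodes in P28 replicate 2. A pool of mice is 1 sample, so the P14 level has no replicate.

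The organ of Corti is bordered by nonsensory epithelium: the inner sulcus on the side of the spiral limbus, and Hensen's cells, Claudius cells and the outer sulcus on the lateral side. Aquaporin-4, the product of *Aqp4*, is a water channel of the basolateral membrane, and in the cochlea it is known from these bordering supporting cells rather than from hair cells. Such cells share gap junctions that carry potassium away from the hair cells, and they express *Bmp4* and other signals of the lateral side. Of the other gate genes, *Gata2* encodes a zinc finger transcription factor, *Agr3* a protein disulfide isomerase of the secretory route, and *Pcdh17* a delta-protocadherin of cell adhesion.

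The gated cells were deeper than the other barcodes and, within the limits used here, held a smaller share of mitochondrial RNA. Their median was 5375 UMIs at P14, 6004 in P28 replicate 1 and 3437 in P28 replicate 2, against 2272, 2361 and 2010 in the other barcodes. Mitochondrial genes took a median of 3.93%, 7.99% and 9.08% of their UMIs, against 6.42%, 10.1% and 10.8%. Under the study's own limits of 3000 genes and 15000 UMIs, the direction turned at P14, with 6.54% in the gated cells against 6.33%. The share of barcodes inside the gate was 9.45% at P14 (95% exact binomial interval 8.08 to 10.96), 3.38% in P28 replicate 1 (2.92 to 3.88) and 2.35% in P28 replicate 2 (2.01 to 2.73). A deeper barcode meets the gate more easily. With every barcode thinned to 1000 UMIs before the gate, leaving out shallower ones, the shares were 4.23%, 1.42% and 1.09%. P14 was the highest in either form, but it is 1 library, and age and library cannot be told apart.

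In each triplet of values the order is P14, P28 replicate 1, P28 replicate 2. Levels were expressed as CPM, the counts of a gene per 1000000 UMIs, of the summed cells of each library. *Aqp4* stood at 400 CPM at P14, 361 in P28 replicate 1 and 478 in P28 replicate 2, against 53.4, 41.0 and 32.4 CPM in the other barcodes. *Gata2* stood at 374, 268 and 331 CPM, against 92.9, 57.1 and 40.1. *Pcdh17* stood at 160, 138 and 177 CPM, against 59.9, 35.3 and 27.0. *Nckap5* (90.3, 84.1 and 119 CPM) and *Agr3* (74.6, 41.3 and 71.7 CPM) stood above the other barcodes in each library too, which the gate favours. None of these levels moved with age by as much as 2-fold in both P28 libraries.

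Many members entered the gate narrowly. Exactly 2 of the 5 genes were present in 76 of the 157 cells at P14, in 119 of 191 in P28 replicate 1 and in 104 of 166 in P28 replicate 2, and all 5 in 11, 8 and 8 cells. A single *Aqp4* UMI carried 52, 88 and 93 members. Just outside the gate lay 50, 141 and 180 barcodes with *Aqp4* as the only gate gene, in which *Epyc* stood at 13954, 4911 and 3752 CPM, against 15118, 5943 and 5283 CPM inside. Also outside were 62, 210 and 160 barcodes with *Aqp4*, another gate gene and *Sox2*, with a median of 10764.5, 9799 and 7032 UMIs, and 0, 4 and 2 barcodes that only the *Ocm* limit kept out. In the *Sox2*-bearing barcodes just outside, *Ucma* stood at 847, 58.4 and 39.1 CPM, against 2698, 444 and 172 CPM inside, while *Slc1a3*, a glutamate transporter of inner phalangeal and border cells, stood at 102, 489 and 589 CPM, against 23.9, 134 and 151 CPM inside.

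The label was set beside 8 markers of sulcus and Hensen cells, and all 8 were higher in the gated cells than in all other barcodes. This list was chosen with earlier results of these data known, so it is not an independent check of the label. Sums per library were compared with edgeR's quasi-likelihood test with a term for the library, and p-values were adjusted by the method of Benjamini and Hochberg over 13659 genes, with a threshold of 0.05. Of all genes, 13.1% were higher and 18% were lower (1788 and 2457 genes), and their median log2 fold change was −0.11. These values follow TMM scaling of the library totals. Without it, 955 genes were higher and 3980 lower, a share of 19.4% higher among the called genes in place of 42.1%, and the median was −0.44. Numbers in parentheses after a gene are log2 fold changes of the gated cells over the comparison cells. The median of the 8 markers was 1.88. Against only those other barcodes that held an *Epcam* UMI (491, 1509 and 1527 barcodes), 7 of the 8 were higher, with a median of 1.34. Of the 12196 genes tested there, 8.08% were higher and 9.78% lower, with a median of −0.03. *Shisal2b* (0.42, adjusted p = 0.37) did not pass there. Without P28 replicate 1 the test called 585 genes higher and 981 lower, and without P28 replicate 2 it called 1121 and 1742.

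*Epyc*, which encodes the small proteoglycan epiphycan of cochlear epithelium, reached 15118, 5943 and 5283 CPM, against 2888, 1000 and 817 CPM in the other barcodes, a log2 fold change of 2.88 (SE 0.16, edgeR adjusted p = 1.1e-04). *Ucma*, a secreted matrix protein, stood at 2698, 444 and 172 CPM, against 426, 61.9 and 72.8 (2.62, SE 0.32, edgeR adjusted p = 7.3e-04). *Gjb2*, the connexin 26 of cochlear gap junctions, stood at 2346, 1375 and 1131 CPM, against 576, 546 and 528 (1.82, edgeR adjusted p = 5.8e-04). Each of these levels lay above the other barcodes in every library. *Gata3*, a transcription factor of the otic epithelium, stood at 1317, 1071 and 1072 CPM, against 569, 352 and 261 (1.95). *Bmp4*, the ligand of the lateral side, stood at 391, 192 and 203 CPM, against 93.7, 66.9 and 79.3 (1.98). *Nupr1*, a stress-responsive nuclear protein, stood at 894, 712 and 543 CPM, against 282, 257 and 241 (1.77). *Fst*, which encodes the BMP and activin antagonist follistatin, was higher by 1.04 with levels of 15.7, 74.4 and 62.6 CPM, against 14.3, 38.4 and 35.6, and *Shisal2b* by 1.74 with levels below 25 CPM.

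**Figure D1:**
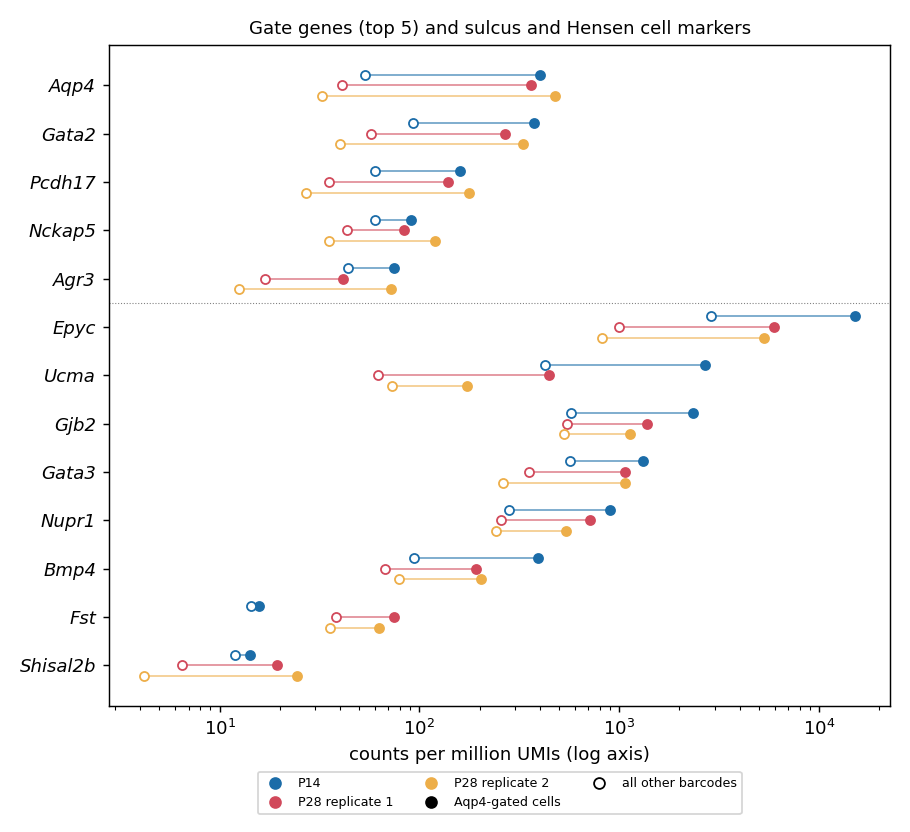
CPM (log axis) of the 5 gate genes and of 8 sulcus and Hensen cell markers, with filled circles for the summed *Aqp4*-gated cells and open circles for all other barcodes of the same library, coloured by library. The gate genes are separated by construction. *Epyc* lies between 5283 and 15118 CPM in the gated cells and between 817 and 2888 CPM in the others.

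*Lgals1*, which encodes the secreted lectin galectin-1, had the highest log2 fold change against all other barcodes among genes with at least 100 CPM in every library, at 2.96 (SE 0.17, edgeR adjusted p = 1.1e-04), with 25835, 14128 and 7791 CPM, against 4179, 2023 and 1415. It was highest at P14 on both sides, and the lowest gated level lay above the highest level of the other barcodes. *Frzb*, a secreted Wnt antagonist, was higher by 2.88, with 696, 345 and 285 CPM, against 118, 57.7 and 50.2. The serine protease genes *Prss36* (2.78) and *Prss23* (2.59), the lipoprotein receptor gene *Vldlr* (2.74), the hyaluronan receptor gene *Cd44* (2.49), *Tdrd12* of the Tudor family (2.93) and *Clic6* of the chloride intracellular channel family (2.92) followed. 2 carbonic anhydrases were among the leading genes: *Car3*, with 3768, 1518 and 621 CPM, against 262, 335 and 348 (2.62, SE 0.50, edgeR adjusted p = 0.0049), and *Car13*, with 509, 179 and 153 CPM, against 118, 39.0 and 32.2 (2.51). Of 8 tested genes of proton pumps and carbonic anhydrases, these 2 were higher and 4 were lower (13.1% and 18% of all genes), with a median of −0.51. *Car3* had the widest error of the 12 genes named, its ratio to the other barcodes being smallest in P28 replicate 2.

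Among the lower genes with at least 100 CPM in the other barcodes of every library, *Pcp4*, a calmodulin regulator abundant in outer hair cells, stood at 25.4, 87.4 and 91.6 CPM, against 4792, 1980 and 1208 in the other barcodes (−4.80, SE 0.65, edgeR adjusted p = 0.0010). *Acbd7* (−4.42), the dynamin gene *Dnm3* (−4.26), *Lbh* (−4.19), the parvalbumin gene *Pvalb* (−4.13), *Dner* (−3.96), *Snap91* (−3.49) and *Chst2* (−3.46) were lower too.

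**Figure D2:**
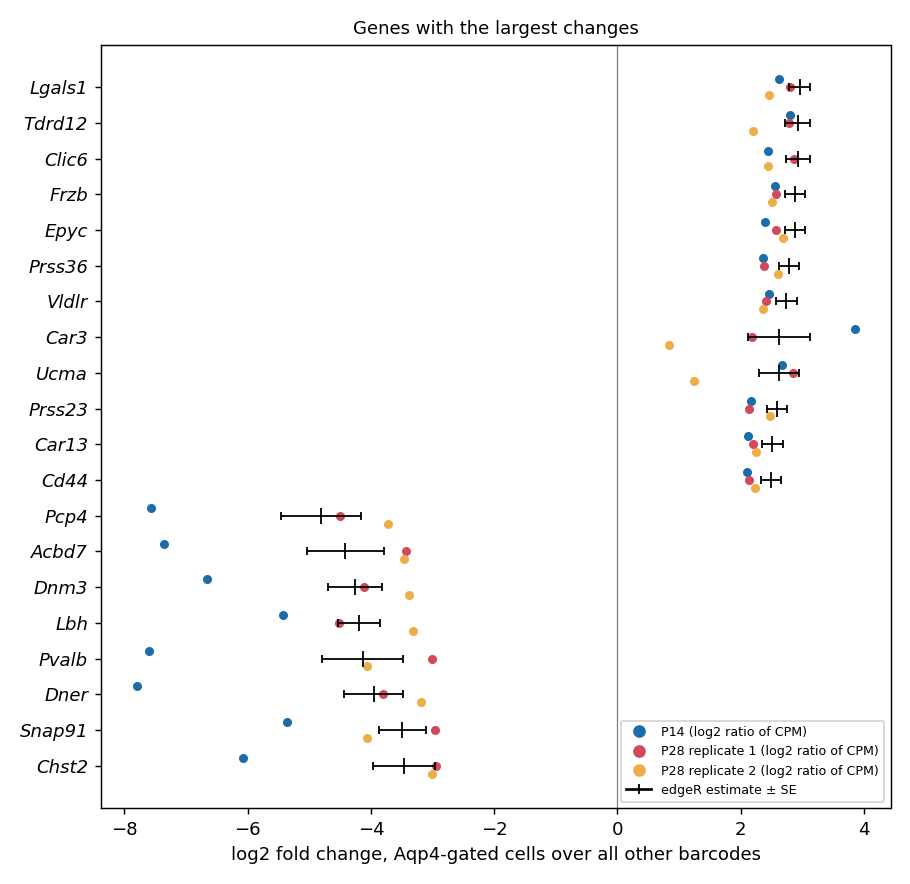
Log2 fold change of the 12 highest and 8 lowest genes in *Aqp4*-gated cells over all other barcodes. Coloured circles give the log2 ratio of CPM in each library and black bars the edgeR estimate with its standard error, from 2.96 for *Lgals1* down to −4.80 for *Pcp4*. The TMM scaling shifts the estimates upwards from the plain ratios of CPM.

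*Gata2* chose the cells and *Gata3* was higher in them, so the promoters of the 12 highest genes were read for letters to which GATA factors bind. The letters were AGATAA, or TTATCT, which is AGATAA read on the other strand. Other forms of the site were not searched. Of these genes, 8 had a promoter in the RefSeq table (GRCm38.p6), and 3 of the 8 (*Epyc*, *Prss23* and *Cd44*) held the letters within 250 bases before a start site. Of all 27025 genes in the table, 11.4% did, and of all 32851 promoters 9.99% did. A gene with more listed starts has more chances of a match, and *Prss23* had 7. A match is a run of letters and not a measured binding site. The sequences of *Cd44* (chr2:102901666-102901915, minus strand) and of both starts of *Epyc* (chr10:97643818-97644067 and chr10:97646853-97647102, plus strand) are shown because each start listed for these genes held the letters (1 of 7 did for *Prss23*), with the letters in capitals and the start site following the last base.
Cd44: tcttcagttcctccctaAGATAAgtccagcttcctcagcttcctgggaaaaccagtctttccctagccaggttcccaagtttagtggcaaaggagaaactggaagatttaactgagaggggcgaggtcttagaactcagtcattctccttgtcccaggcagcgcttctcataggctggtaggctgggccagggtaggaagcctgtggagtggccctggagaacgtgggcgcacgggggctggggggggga
Epyc, first start: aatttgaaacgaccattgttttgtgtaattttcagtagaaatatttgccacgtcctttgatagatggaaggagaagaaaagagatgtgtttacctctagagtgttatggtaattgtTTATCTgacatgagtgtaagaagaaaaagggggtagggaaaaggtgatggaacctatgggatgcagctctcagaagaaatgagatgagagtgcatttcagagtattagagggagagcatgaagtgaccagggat
Epyc, second start: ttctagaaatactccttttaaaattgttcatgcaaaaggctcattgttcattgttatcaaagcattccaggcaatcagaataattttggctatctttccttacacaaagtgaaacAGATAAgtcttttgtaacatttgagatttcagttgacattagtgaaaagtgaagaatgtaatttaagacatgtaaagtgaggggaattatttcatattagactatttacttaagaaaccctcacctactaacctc

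Genes of the Notch and BMP pathways, among them ligands, receptors and targets, were higher in the gated cells than in all other barcodes, and fewer of them were against *Epcam*-bearing barcodes. In Notch signalling a ligand such as Jagged on one cell binds a receptor on its neighbour, whose inner part is then cut free and switches on the Hes and Hey repressors, while BMP ligands act through receptor kinases on the Id genes and the inhibitory Smads. Of 22 genes tested, 14 were higher than in all other barcodes and 3 were lower (13.1% and 18% of all genes), with a median of 1.03 (−0.11 over all genes). Against the other barcodes with an *Epcam* UMI the counts were 6 higher and 3 lower (8.08% and 9.78% of all genes), with a median of 0.43. The 6 were *Notch1*, *Heyl*, *Bmp4*, *Bmp6*, *Id3* and *Fst*, with no Notch ligand among them. The 3 lower ones were *Jag2* (−3.48), *Lfng* (−2.37) and *Bmpr1b* (−1.46).

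Among the receptors, *Notch1* stood at 120, 101 and 121 CPM, against 53.2, 43.2 and 41.0 in the other barcodes (1.65), and *Notch2* (0.68) and *Notch3* (1.91) were also higher. Among the ligands, *Jag1* was higher by 0.83, with 33.6, 97.1 and 101 CPM, against 34.3, 68.5 and 51.6, with like levels at P14, and stood at −0.33 against *Epcam*-bearing barcodes. *Jag2* was lower (−3.27), and so was *Lfng* (−1.31), a glycosyltransferase that modifies Notch receptors. Among the targets, *Hey1* stood at 64.9, 79.3 and 85.5 CPM, against 45.6, 31.5 and 21.9 (1.58), *Heyl* at 88.0, 166 and 163 CPM, against 58.8, 59.6 and 42.9 (1.67), and *Hey2* (1.59) and *Hes1* (1.19) were higher too. All 4 of these repressors lay above the other barcodes in each library. Of the BMP genes, the ligands *Bmp4* (1.98) and *Bmp6* (1.86) and the targets *Id1* (1.12), *Id3* (1.09) and *Smad6* (1.01) were higher, the ligand *Bmp2* was lower (−1.73, but 0.022 against *Epcam*-bearing barcodes), and the receptor genes *Bmpr1a* (0.18) and *Bmpr1b* (−0.82, but called lower at −1.46 against *Epcam*-bearing barcodes) did not pass the test.

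**Figure D3:**
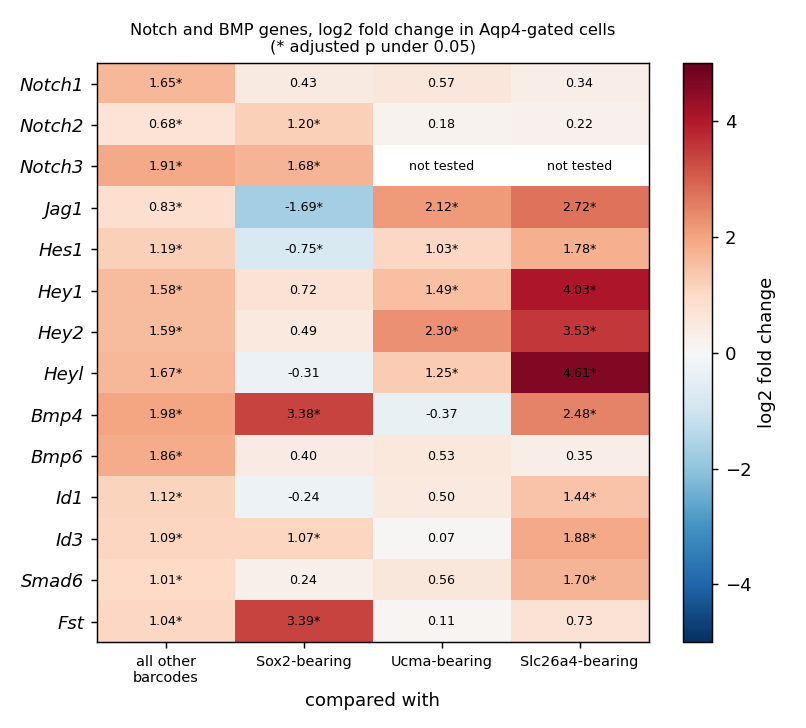
Log2 fold change (colour and printed value) of the 14 Notch and BMP genes that were higher in *Aqp4*-gated cells than in all other barcodes, in 4 comparisons, with an asterisk for an adjusted p under 0.05. *Jag1* is 0.83 against all other barcodes, −1.69 against *Sox2*-bearing cells and 2.12 against *Ucma*-bearing cells.

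Of 20 genes of epithelial junctions, 9 were higher than in all other barcodes (13.1% of all genes), 2 were lower (18% of all genes) and 9 did not pass, with a median of 0.94. They included *Epcam*, an adhesion protein of epithelia (768, 297 and 295 CPM, against 408, 164 and 139; 1.28), *F11r*, the junctional adhesion molecule A (268, 88.2 and 101 CPM, against 74.0, 35.7 and 29.3; 1.98), the claudins *Cldn3* (1.58), *Cldn7* (1.31) and *Cldn8* (1.19), *Lsr* (1.51) and *Ildr1* (1.33) of tricellular contacts. *Tjp1*, the scaffold ZO-1 (−1.17), and *Cdh2*, N-cadherin (−2.92), were lower. Against *Epcam*-bearing barcodes alone, 2 of 19 junction genes were higher, a share near the 8.08% of all genes, and 6 were lower (9.78% of all genes). *Cldn3*, *Cldn7*, *Cldn8*, *Lsr* and *Ildr1* lost their calls there.

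Beyond *Aqp4*, 3 aquaporin genes could be tested. *Aqp11*, an intracellular aquaporin, stood at 206, 133 and 150 CPM, against 429, 137 and 88.0 in the other barcodes, and its log2 fold change of 0.20 did not pass the test. *Aqp1* was lower (−2.54, but not called against *Epcam*-bearing barcodes), *Aqp5* did not pass (−1.14), and the other 7 aquaporins were below the filter on low counts. In muscle and brain, the dystrophin complex anchors aquaporin-4 to the membrane. Of its 13 genes tested, *Utrn* (utrophin, 0.59) and *Dtnb* (dystrobrevin beta, 0.83) were higher, a share near the 13.1% of all genes, and 4 were lower (18% of all genes), while *Dmd* (0.63) and *Dag1* (0.20) did not pass. Against *Epcam*-bearing barcodes *Utrn* (0.18) and *Dtnb* (0.46) lost their calls, and none of 12 genes was higher (8.08% of all genes).

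Among the potassium channels, *Kcnj16*, an inward rectifier, stood at 803, 364 and 356 CPM, against 244, 144 and 113 in the other barcodes (1.90), and its partner *Kcnj10* was higher by 0.85, with 56.0, 72.8 and 102 CPM, against 58.6, 41.7 and 58.2, but stood at −0.16 against *Epcam*-bearing barcodes. Of 13 potassium and chloride transport genes in all, these 2 were higher and 3 were lower, shares near those of all genes (13.1% and 18%). *Gjb6*, connexin 30, stood at 675, 899 and 591 CPM, against 229, 297 and 302 (1.71). The other 2 connexin genes tested besides *Gjb2* were lower. Of 11 genes of the sodium-potassium ATPase and its regulators, *Fxyd6* was higher (750, 857 and 664 CPM, against 202, 500 and 504; 1.35) and 7 were lower, among them the beta subunit gene *Atp1b2* (−1.89). *Atp1b1*, another beta subunit gene (0.53), did not pass, but was higher against *Epcam*-bearing barcodes (0.61). Of 12 genes of sodium absorption and corticosteroid action, *Sgk1*, a kinase that raises sodium channel number (1.31), *Nedd4l*, the ligase that lowers it (0.91), and *P2rx2*, an ATP-gated cation channel (0.95), were higher (13.1% of all genes), and the receptor genes *Nr3c1* (−1.26) and *Nr3c2* (−1.58) were among 4 lower (18% of all genes). Against *Epcam*-bearing barcodes none of 11 was higher and 2 were lower (8.08% and 9.78% of all genes), and these 5 named genes lost their calls, with *P2rx2* at −0.028. The 3 subunits of the epithelial sodium channel itself did not pass.

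The relatives of the gate genes were counted by family, and the families were not tested against each other. Of all genes, 13.1% were higher and 18% lower. Of 15 genes of protein folding in the endoplasmic reticulum, a list of disulfide isomerases (the family of *Agr3*), chaperones and their transcription factors, 8 were higher and 1 lower, with a median of 0.68. *Pdia4* stood at 778, 130 and 150 CPM, against 274, 74.5 and 80.7 (1.41), and *Txndc5* (1.18), *Hspa5* (0.81) and *Calr* (0.79) were also higher. Without TMM scaling, 4 of the 15 were higher and 1 lower (955 and 3980 of all 13659 genes). Against *Epcam*-bearing barcodes 4 of 14 were higher and none lower (8.08% and 9.78% of all genes), with *Hspa5* (0.48) among those not called. Of the 6 delta-protocadherins tested besides *Pcdh17*, *Pcdh1* was higher (1.10) and the other 5 were lower, with a median of −2.47. *Pcdh7*, for example, stood at 9.70, 12.1 and 16.8 CPM, against 74.4, 85.4 and 89.6. Of 7 GATA family and cofactor genes, *Gata3* and the cofactor *Zfpm1* (94.7, 87.4 and 82.4 CPM, against 63.9, 43.1 and 40.3; 1.20) were higher and 3 were lower. Against *Epcam*-bearing barcodes *Pcdh1* (0.26) and *Zfpm1* (0.45) lost their calls.

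Otic transcription factors and Wnt genes held calls in both directions, beside 13.1% of all genes higher and 18% lower. The share of otic factors that were lower was near that of all genes. Of 22 otic factors, 8 were higher and 4 lower: *Gata3*, *Grhl1* (2.16), *Sox10* (199, 182 and 198 CPM, against 81.9, 88.3 and 86.2; 1.51), *Eya1* (1.31) and *Nr2f1* (595, 1268 and 1572 CPM, against 425, 671 and 600; 1.26) were higher, and *Prox1*, a factor of pillar and Deiters' cells (−4.81), and *Six2* (−3.22) were lower. Without TMM scaling, and against *Epcam*-bearing barcodes (23 genes tested), the counts of otic factors were 5 higher and 8 lower, and *Sox10* (0.40) was not called in the latter. Of all genes, 955 and 3980 of 13659 were called without TMM scaling, and 8.08% and 9.78% against *Epcam*-bearing barcodes. Of 21 Wnt genes, 7 were higher and 8 lower: the ligands *Wnt7a* (2.10) and *Wnt7b* (1.56), the receptors *Fzd3* (1.23) and *Fzd6* (1.51) and the antagonist *Sfrp1* (1.32) were higher, and *Rspo1* (−2.62), *Dkk3* (−2.31) and *Fzd1* (−2.23) were lower. All 8 of these named Wnt genes lost their calls against *Epcam*-bearing barcodes, where 2 of 18 Wnt genes were higher and 2 lower (8.08% and 9.78% of all genes).

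Proteins of the tectorial membrane and other secreted glycoproteins were the last group. Of 18 tested, 10 were higher and 4 lower (13.1% and 18% of all genes), with a median of 0.78. Besides *Epyc* and *Ucma*, *Mia* stood at 7364, 517 and 652 CPM, against 2196, 163 and 136 (2.22), and the cartilage-type collagen genes *Col9a3* (1.88), *Col11a1* (1.71), *Col9a1* (1.56) and *Col9a2* (1.44) were higher. *Otogl*, otogelin-like of acellular membranes, was higher by 0.99 (51.5, 124 and 114 CPM, against 48.8, 72.0 and 54.3) but stood at −0.35 against *Epcam*-bearing barcodes, while *Otog* (−0.11, but called lower at −1.46 against *Epcam*-bearing barcodes) and *Tectb* (0.57) did not pass. *Coch*, the cochlin gene of fibrocytes, was lower (25.4, 192 and 487 CPM, against 782, 1467 and 1905; −2.82), but stood at 0.13 against *Epcam*-bearing barcodes and was not called there.

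Markers of other cell types were present in the gated cells. All 10 hair cell markers, all 7 spiral ganglion neuron markers and all 8 macrophage markers tested were lower than in the other barcodes. Of all genes, 13.1% were higher and 18% lower. The summed hair cell markers stood at 228, 633 and 485 CPM, against 8817, 4207 and 2789, with *Cib2* the most abundant at P14 and *Myo6* at P28. Of 8 fibrocyte and fibroblast markers, *Lum* was higher (1981, 375 and 543 CPM, against 450, 115 and 122; 2.33) and 7 were lower. Of 5 erythroid markers, 1 was lower, a share near that of all genes. Their sum stood at 223, 5580 and 6012 CPM, against 21670, 11570 and 16876, with *Hbb-bs* the most abundant. Of 5 spindle and root cell markers, *Lgr5* (0.90) and *P2rx2* (0.95) were higher (neither against *Epcam*-bearing barcodes) and *Anxa1* (−3.51) was lower. *Slc26a4*, which defines these cells, stood at 0, 11.3 and 38.2 CPM, against 2.46, 28.3 and 49.5. It did not pass, but was called lower at −1.91 against *Epcam*-bearing barcodes. At least 3 hair cell markers were found in 18, 16 and 9 gated cells, at least 3 fibrocyte markers in 32, 37 and 43, and at least 3 erythroid markers in 20, 3 and 6. Whether these UMIs came from free RNA, from doublets or from the cells themselves was not tested.

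The gated cells were then compared with *Sox2*-bearing supporting cells. These cells (62 at P14, 294 and 274 at P28) had a *Sox2* UMI, a UMI in *Gjb6*, *Lfng* or *Epcam* and no *Aqp4* UMI, with *Ocm* under 0.5% of UMIs. Of 10495 genes, 1297 were higher in the gated cells and 1350 lower (12.4% and 12.9%), or 49.0% higher among those called, against 19.9% without TMM scaling, where the median moved from −0.01 to −0.32. All 8 sulcus and Hensen markers were higher, with a median of 2.58. All 9 hair cell markers tested were lower (median −3.62), 6 of 7 Deiters, pillar and inner phalangeal markers were lower (−2.41), and 4 of 4 erythroid (1.52) and 4 of 5 macrophage markers (1.60) were higher, and their part in the other differences was not tested. Without P28 replicate 1 the counts were 584 and 838, and without P28 replicate 2 they were 615 and 877.

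Among genes with at least 100 CPM in every library of the gated cells, *Car3* had the highest log2 fold change (4.18, SE 0.47, edgeR adjusted p = 9.65e-06), with 51.3, 112 and 124 CPM in the *Sox2*-bearing cells against the 3768, 1518 and 621 CPM of the gated cells. *Ucma* followed (4.14), with 168, 17.5 and 28.0 CPM in the *Sox2*-bearing cells, and *Bmp4* (3.38), with 51.3, 24.5 and 19.5 CPM. *Frzb* (3.46), *Vldlr* (3.20) and *Lgals1* (3.19) were higher too, and the gated and *Sox2*-bearing levels of these genes did not overlap. *Fst*, which lay below 100 CPM, was also higher (3.39), with 0, 5.26 and 12.7 CPM in the *Sox2*-bearing cells. In the other direction, *Sall1*, a zinc finger factor, stood at 0.746, 6.47 and 6.11 CPM in the gated cells, against 156, 208 and 183 (−5.14). *Atp2a3*, a calcium pump of the reticulum (−5.09), *Dgkb* (−4.70), *Cabp2*, a calcium-binding protein (−4.31), *Otof*, the calcium sensor of the inner hair cell synapse (−4.24), and the nuclear receptor gene *Rorb* (−4.22) were lower. *Otof* and *Cabp2* are inner hair cell genes, and *Otof* stood at 282, 789 and 632 CPM in the *Sox2*-bearing cells. With barcodes holding an *Otof* or *Slc17a8* UMI left out of the comparison (57, 232 and 224 cells remained), 712 genes were higher and 713 lower (7.25% and 7.26%), *Sall1* (−4.90), *Dgkb* (−4.87) and *Rorb* (−3.85) stayed lower, and *Cabp2* was at 0.09. *Atp2a3* fell below the filter on low counts there and was not tested, with 1, 3 and 2 UMIs left in the *Sox2*-bearing cells.

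Of the Notch genes, *Jag1* (−1.69) and *Hes1* (−0.75) were lower in the gated cells than in the *Sox2*-bearing cells, *Notch2* (1.20) and *Notch3* (1.68) were higher, and *Hey1* (0.72), *Hey2* (0.49) and *Heyl* (−0.31) did not pass the test. *Hes1* (−0.93) and *Notch3* (1.21) lost their calls with the *Otof*- or *Slc17a8*-bearing barcodes left out. *Otog* (−2.65), *Otogl* (−1.56), *Ceacam16*, a tectorial membrane glycoprotein gene (−1.50), *Slc1a3* (−3.00) and *Prox1* (−4.61) were lower. *Aqp11* was higher (1.21), and so were *Fxyd6* (1.70) and *Car13* (1.82), whereas *Kcnj10* was lower (−1.27) and *Kcnj16* (−0.01) did not pass.

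Against *Ucma*-bearing cells without *Aqp4*, few genes differed. These cells (114 at P14, 172 and 221 at P28) had at least 2 *Ucma* UMIs and no *Aqp4* or *Sox2* UMI. Of 8061 genes, 121 were higher in the gated cells and 164 lower (1.5% and 2.03%), or 42.5% higher among those called. Of the fibrocyte and fibroblast markers, 5 of 8 were lower. *Otos* (otospiralin) stood at 29.1, 205 and 418 CPM in the gated cells, against 3184, 14090 and 10786 (−5.80, SE 0.25, edgeR adjusted p = 5.1e-11), and *Apod* (−3.27), *S100b* (−3.26), *Coch* (−3.10), *Ptgds* (−2.82) and *Gsn* (−1.60) followed. The part of fibrocyte RNA in the other differences was not tested. Of the sulcus and Hensen markers, 2 of 7 tested were higher and none lower, with a median of 0.11 (−0.03 over all genes). *Epyc* (0.09), *Bmp4* (−0.37), *Fst* (0.11) and *Car3* (−0.38) did not pass the test, and *Nupr1* (0.48) was higher.

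The genes higher in the gated cells included *Lockd*, a noncoding RNA next to *Cdkn1b*, with 213, 211 and 360 CPM, against 64.6, 46.5 and 57.6 (2.17, SE 0.18, edgeR adjusted p = 4.2e-07), and *Socs2*, a suppressor of cytokine signalling, with 401, 399 and 432 CPM, against 183, 94.5 and 92.2 (1.75). Both were above the *Ucma*-bearing cells in every library, and the gated levels of *Socs2* lay between 399 and 432 CPM. *Cobl*, an actin nucleator (1.17), *Mgst1*, a glutathione transferase (1.07), *Kank1* (0.98) and *Trim2* (0.93) followed. The Notch ligand *Jag1* (2.12) and the targets *Hey2* (2.30), *Hey1* (1.49), *Heyl* (1.25) and *Hes1* (1.03) were all higher, making 5 of 17 Notch and BMP genes tested, with none lower. *Otog* (2.83), *Wnt7a* (2.65) and *Aqp11* (0.87) were higher too. This comparison rested on the library term and on P28 replicate 1: without the term no gene was called (272 had an unadjusted p under 0.05), DESeq2 called 22 higher and 34 lower, and without P28 replicate 1 the counts were 6 and 10. Of the genes named against *Ucma*-bearing cells, 12 lost their calls without P28 replicate 1, 8 by DESeq2 and 6 after thinning to 1000 UMIs. Against *Ucma*-bearing cells with an *Epcam* UMI (58, 93 and 80 cells), 121 genes were higher and 73 lower (1.71% and 1.03%), or 62.4% higher among those called, and *Lockd* (1.89) and *Socs2* (1.75) were again higher. In that comparison the differences of *Otos* (−2.92), *Apod* (−1.29), *S100b* (−1.38), *Coch* (−1.32) and *Ptgds* (−1.23) were smaller, *Gsn* (−0.45) lost its call, and *Bmp4* (−0.72) was called lower.

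Against *Slc26a4*-bearing cells, which carry the pendrin gene of spindle and root cells, only the P28 libraries could be used (125 and 182 cells), since P14 held 3. Of 8112 genes, 798 were higher in the gated cells and 666 lower (9.84% and 8.21%), or 54.5% higher among those called, against 22.7% without TMM scaling and 66.9% by DESeq2. *Qpct*, a glutaminyl cyclase, stood at 243 and 157 CPM, against 7.27 and 9.48 (4.85, SE 0.32, edgeR adjusted p = 2.4e-05). *Inhba*, an activin subunit (4.82), *Heyl* (4.61), *Lgals1* (4.47) and *Phyhipl* (4.18) were higher too, as were *Hey1* (4.03), *Hey2* (3.53), *Gata3* (3.34), *Aqp11* (3.09) and *Epyc* (3.03). Among the lower genes, *Fxyd3*, a regulator of the sodium-potassium ATPase, stood at 17.0 and 19.8 CPM, against 739 and 667 (−4.91), and the anion exchanger gene *Slc26a7* (−4.74), the endocytic receptor gene *Lrp2* (−4.65), *Bpifb3* (−4.60), the peptidase gene *Enpep* (−4.50) and *Otoa*, otoancorin (−4.48), followed. Of the markers of other cell types, all 3 of Reissner's membrane (median −4.30), both of tympanic border cells (−1.73) and 3 of 4 of spindle and root cells (−2.75) were lower, and 4 of 6 of hair cells (1.48) were higher. Their part in the other differences was not tested. With 2 libraries no library could be left out.

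The gated cells were not uniform, and *Ucma* divided them. This division and the genes named for it were chosen after the values were seen, so they are given as a description. A *Ucma* UMI was found in 103 of 157 gated cells at P14, 88 of 191 in P28 replicate 1 and 47 of 166 in P28 replicate 2, or 65.6%, 46.1% and 28.3%. In outer hair cell barcodes (at least 0.5% *Ocm*, 263, 363 and 282 barcodes with median depths of 6729, 5243 and 3752.5 UMIs), which should lack the gene, 2.66%, 4.13% and 3.90% had one. *Ucma*-bearing members were deeper, so levels are given for cells with at least 3000 UMIs, 92 with and 23 without *Ucma* at P14, 82 and 64 in P28 replicate 1 and 39 and 57 in P28 replicate 2. At P14 the depth still differed in these (median 10733.5 against 4381 UMIs), and less so in the P28 libraries (7410.5 against 6646.5, and 5460 against 4600).

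*Bmp4* and its neighbour *Rubie* went with *Ucma*. *Rubie* (chr14:46568263-46598425, minus strand, GENCODE M21 on GRCm38) is a long noncoding RNA beside *Bmp4* (chr14:46383520-46390669, minus strand), and it stood at 506, 156 and 299 CPM in members with *Ucma*, against 6.39, 8.65 and 39.6 CPM in members without. *Bmp4* stood at 462, 287 and 430 CPM with *Ucma*, against 31.9, 69.2 and 95.7 without. *Car3* stood at 4516, 2496 and 1210 CPM, against 12.8, 296 and 366. The P14 library showed the sharpest separation for these genes. In the outer hair cell barcodes, *Car3* was found in 2.66%, 14.0% and 12.8% and *Bmp4* in 1.52%, 4.68% and 3.55%, more often at P28. *Rubie* was found there in 4.18%, 1.65% and 1.06%, more often at P14. The part of free RNA, and of *Ucma* UMIs missed at P28, in this difference between libraries was not tested. *Ccn2*, a matricellular growth factor, *Phyh*, a peroxisomal hydroxylase, *Trnp1*, *Clic6*, *Tdrd12* and *Vldlr* were also on the side with *Ucma* in each library.

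The members without *Ucma* held more of the otogelins. *Pcdh17* and *Agr3* are gate genes, and a member with few UMIs in one of them needed another to enter, so their levels depend on the gate. *Pcdh17* stood at 754, 262 and 287 CPM in them, against 50.4, 43.7 and 14.0 CPM in members with *Ucma*. *Agr3* stood at 198, 69.2 and 85.8 CPM without, against 42.3, 11.6 and 14.0 with. *Otogl* stood at 268, 257 and 158 CPM without, against 6.30, 30.6 and 28.0 with. Over gated cells of any depth, 13 of 41, 8 of 47 and 4 of 44 *Pcdh17*-bearing members had a *Ucma* UMI. At P14 the *Pcdh17*-bearing members were shallower than those without it (median 3641 against 6770.5 UMIs). In the P28 libraries they were deeper (6891 against 5993, and 4281.5 against 3312). *Lockd* (632, 344 and 501 CPM without, against 149, 93.2 and 121 with), *Socs2* (1041, 608 and 558 against 295, 210 and 182), *Jag1* (95.8, 123 and 125 against 12.6, 68.4 and 37.4) and *Hey1* (134, 119 and 119 against 43.2, 43.7 and 46.7) were on this side too. These are genes that were higher against the *Ucma*-bearing cells outside the gate. *Epyc* (13347, 5400 and 4807 CPM without, against 14897, 6199 and 5773 with) was slightly higher with *Ucma*, with separate 95% Poisson intervals in each library. *Gata3* (1367, 960 and 1066 against 1314, 1150 and 1140) had separate intervals in P28 replicate 1 alone. Those of *Heyl* (83.0, 182 and 162 against 88.2, 154 and 182) overlapped in each library. The inner phalangeal cell marker *Slc1a3*, the pleiotrophin gene *Ptn* and the inner hair cell gene *Otof* also had higher levels without *Ucma*. *Slc1a3* stood at 63.9, 199 and 221 CPM, against 15.3, 59.7 and 79.4 with, *Ptn* at 185, 1447 and 1340 CPM, against 26.1, 268 and 612, and *Otof* at 6.39, 125 and 39.6 CPM, against 0, 5.82 and 23.4. *Otof* was a single UMI at P14 and its intervals overlapped in P28 replicate 2, and the part of such cells in the division was not tested. *Gata2* was uneven at P14 (645 without, 327 with) and P28 replicate 1 (307 and 218) and close in P28 replicate 2 (284 and 290).

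**Figure D4:**
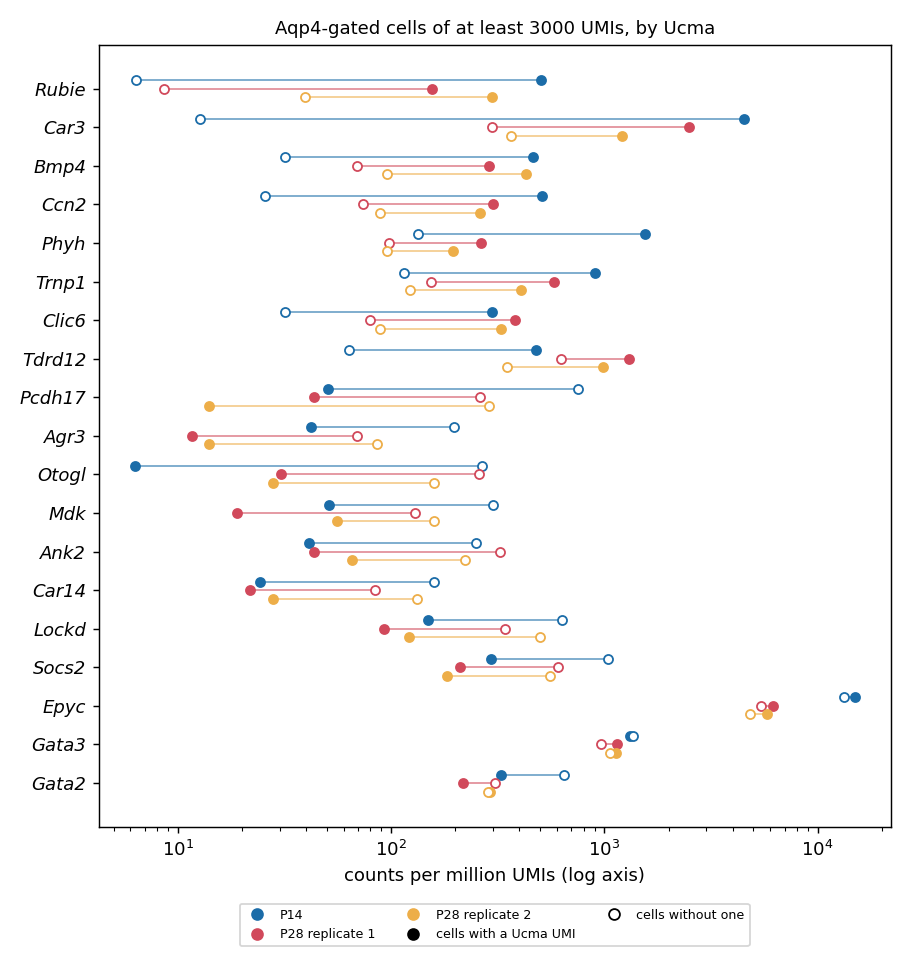
CPM (log axis) in *Aqp4*-gated cells of at least 3000 UMIs, with filled circles for cells with a *Ucma* UMI and open circles for cells without, coloured by library. *Rubie*, *Car3* and *Bmp4* lie higher with *Ucma* in all 3 libraries, *Pcdh17*, *Agr3* and *Otogl* lie higher without, and *Epyc* and *Gata3* lie close together.

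P14 and P28 could be compared by level only, since P14 was 1 library. Of 1675 genes with at least 100 CPM, 183 (10.9%) were at least 2-fold higher at P14 than in both P28 libraries and 95 (5.67%) at least 2-fold lower, with a median log2 ratio of 0.18 on the scale of log2(CPM + 1). The 100 CPM could be met at a single age, as by *Xist* at P14 and *Emilin2* at P28. The difference itself thus let some genes into these counts. With *Malat1* and the genes of mitochondria, ribosomal proteins and globins left out of both the CPM total and the count, 131 of 2112 genes were higher and 164 lower, and which of these changes moved the balance was not tested. Age, library and pool of mice cannot be told apart. The share of members with a *Ucma* UMI differed too, at 65.6%, 46.1% and 28.3%. *Ucma* itself stood at 2698, 444 and 172 CPM over all members, so more cells without a UMI may be missed ones at P28. Of the *Bmp4*-bearing members, 96.3%, 77.6% and 58.3% had a *Ucma* UMI. A change in the mix of members and a change in *Ucma* level cannot be told apart here. The part of either in these differences, and in levels by age given with or without *Ucma*, was not tested. The pools also differed in sex: *Xist* stood at 225, 0.809 and 0 CPM, and the Y-linked *Ddx3y* at 20.1, 61.5 and 76.3 CPM.

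Several matrix genes stood highest at P14. Of 16 tectorial membrane and secreted glycoprotein genes at this level, 11 were at least 2-fold higher at P14 and 4 lower, with a median log2 ratio of 2.09. Some reached 100 CPM at a single age, *Col9a1*, *Col2a1* and *Tectb* at P14 and *Otog* at P28 (18.7, 69.6 and 142 CPM). The counts of this list thus depend in part on the difference they describe. *Col9a1* stood at 935 CPM at P14 (95% Poisson interval 884 to 988), against 29.1 and 30.5 CPM at P28, and in the other barcodes at 324, 14.8 and 14.8 CPM. *Col2a1* stood at 309, 11.3 and 19.8 CPM, *Mia* at 7364, 517 and 652 CPM, and *Tectb*, the beta-tectorin of the tectorial membrane, at 166, 12.1 and 6.11 CPM. The other barcodes were also highest at P14 for these genes, with 462, 38.1 and 76.4 CPM for *Col2a1*, 2196, 163 and 136 CPM for *Mia* and 90.5, 21.8 and 6.36 CPM for *Tectb*, so the pattern was not limited to the gated cells. *Tmprss9*, a serine protease gene, stood at 712, 14.6 and 6.11 CPM, and *Spink8*, a protease inhibitor gene, at 181, 8.90 and 3.05 CPM. Of 11 genes of the protein folding list, 6 were at least 2-fold higher at P14 and none lower (median log2 ratio 1.41), with *Hspa5* at 1050, 274 and 261 CPM in the gated cells and 622, 217 and 209 CPM in the others. *AY036118* (242, 6.47 and 9.16 CPM) and *Lars2* (348, 33.2 and 30.5 CPM), which attract ribosomal and mitochondrial reads, were higher at P14 too, also in the other barcodes (360, 10.2 and 10.3 CPM for *AY036118*), and the part of RNA quality was not tested.

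Several genes lower at P14 were abundant outside the gate. *Hbb-bs*, a beta-globin gene, stood at 128, 3103 and 3033 CPM in the gated cells and at 11628, 6347 and 9108 CPM in the others, and all 4 globin genes with enough counts were lower at P14. *Emcn* (1.49, 63.9 and 165 CPM) and *Emilin2* (2.98, 116 and 140 CPM) were at 145, 831 and 854 CPM and at 642, 723 and 872 CPM in the other barcodes, and *Otos* was at 29.1, 205 and 418 CPM inside and 452, 868 and 1284 CPM outside. The part of free RNA in these differences was not tested. After thinning the gated cells to 1000 UMIs, the log2 ratio of *Emilin2* moved from −5.02 to −2.30 and that of *Emcn* from −5.53 to −3.57. *Nr2f1*, also lower at P14, stood at 595, 1268 and 1572 CPM, above the other barcodes (425, 671 and 600). *Otogl* was lower at P14 over all members (51.5, 124 and 114 CPM), but among the members without *Ucma* its P14 level was not the lowest (268, 257 and 158 CPM). *Slc12a7*, the potassium-chloride cotransporter KCC4, stood at 77.6, 244 and 293 CPM inside and 109, 304 and 235 outside. *Bmp4*, *Gata3* and *Gjb2* were highest at P14 over all members, but not by 2-fold over both P28 libraries. Among the members with *Ucma*, *Bmp4* stood at 462, 287 and 430 CPM, and P14 and P28 replicate 2 overlapped by their intervals. *Gjb2* was highest at P14 both with *Ucma* (2438, 1799 and 1485 CPM) and without (1437, 772 and 1046 CPM).

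**Figure D5:**
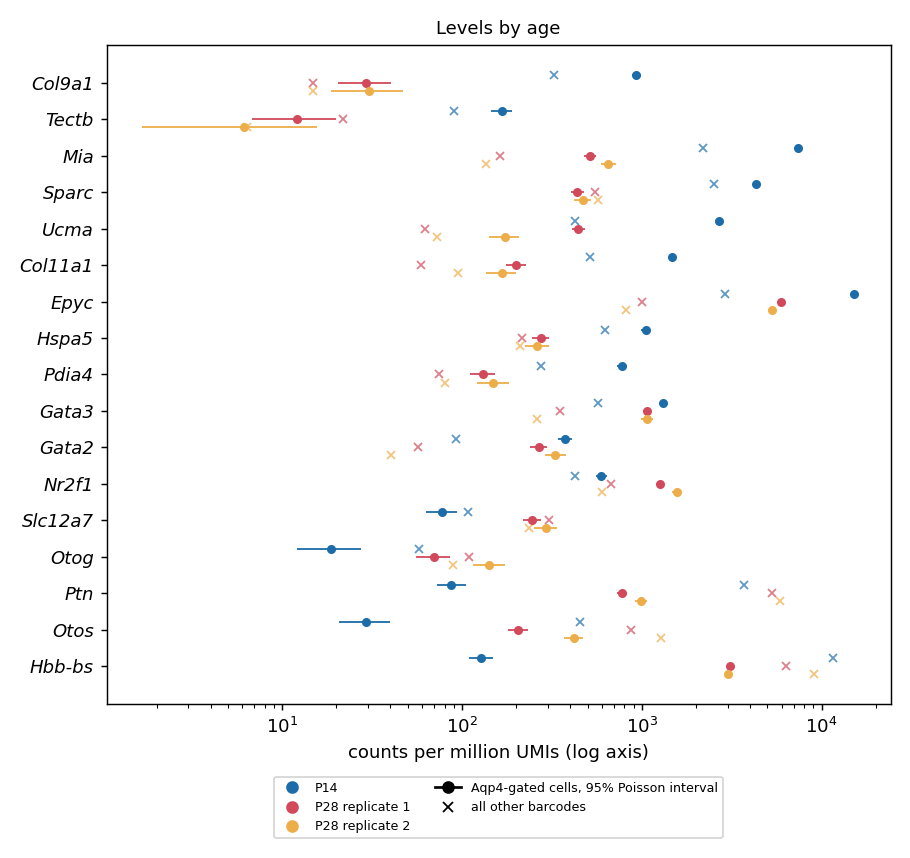
CPM (log axis) of 17 genes in the summed *Aqp4*-gated cells of each library (circles with 95% Poisson intervals, which cover counting error only) and in all other barcodes (crosses). *Col9a1* is at 935, 29.1 and 30.5 CPM, and *Hbb-bs* runs the other way, from 128 to 3103 and 3033 CPM.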

How the data were processed

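The authors aligned the reads to mm10 with 10x Genomics Cell Ranger and deposited 1 filtered matrix of UMI counts per gene and barcode for each library. The submitters' processing notes name version 6.0.1 and the header of the deposited matrices 5.0.1. The members and the gene lists were chosen with earlier results of these data known.

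Raw counts were summed over gated cells and over comparison cells in each library, in Python 3.11.15 (numpy 2.4.6, scipy 1.17.1, pandas 2.3.3, matplotlib 3.10.9), and each pair of sums was compared with edgeR 4.0.16 in R 4.3.3 (TMM, quasi-likelihood test, filterByExpr, Benjamini-Hochberg adjustment). DESeq2 1.42.0 was an alternative. The library was a term in the fit, since both sums of a pair came from the same mice and capture. The deviations of paired sums correlated at 0.44 to 0.59 for all other barcodes, 0.48 to 0.67 for *Sox2*-bearing and 0.53 to 0.79 for *Ucma*-bearing cells. A side needed at least 10 cells in a library. A further limit that defined the *Sox2*-bearing cells, and some genes of the lists, are not reported here. With 1 pool of mice per library, p-values measure only the spread between these libraries. In simulated data with 200 genes changed 4-fold, 81% were recovered against all other barcodes, 78% against *Sox2*-bearing, 72% against *Ucma*-bearing and 23.5% against *Slc26a4*-bearing cells. Ages were compared by CPM with exact 95% Poisson intervals, which cover counting error only.

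Genes were named from the lists, which are otherwise given as counts, and beyond them as the 12 highest and 8 lowest against all other barcodes, the 6 highest and 6 lowest in each other comparison and between ages, all among genes with the same direction in every library and at least 100 CPM on the higher side, without the gate genes. Unnamed gene models were passed over. No doublet caller was run, and the libraries shared 10, 20 and 54 barcodes in pairs, of which 0 were gated. Promoter sequences came from RefSeq (GRCm38.p6). Other filters, gates, scalings and thinning were tried as alternatives.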

Additional observations from a re-analysis of the deposited data

How the results depend on the processing

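The number of genes called depended on most settings, and the cause was not tested. Against all other barcodes (1788 higher, 2457 lower), the counts were 955 and 3980 without TMM, 1131 and 1111 with at least 10 UMIs in every sum, 796 and 1128 after thinning to 1000 UMIs, and 986 and 1193 against *Epcam*-bearing barcodes, and a gate of 3 of the 5 genes gave 1167 higher. Leaving out 1 library gave 585 to 2160 higher and 981 to 2896 lower, the fewest without P28 replicate 1. *Bmp2* (0.022), *Coch* (0.13), *Jag1* (−0.33), *Kcnj10* (−0.16), *Otogl* (−0.35) and *P2rx2* (−0.028) were called against all other barcodes and changed sign against *Epcam*-bearing barcodes, and 37 other named genes lost their calls there. *Aqp11* (−0.34), *Dmd* (−0.29) and *Tectb* (−0.52), not called in either, changed sign too. Without P28 replicate 1, 24 named genes lost their calls against all other barcodes. Against *Sox2*-bearing cells (1297 and 1350), DESeq2 called 681 and 679, edgeR without TMM 591 and 2376, the limits of the study's methods 572 and 639, thinning 300 and 318, and the comparison without *Otof* or *Slc17a8* UMIs, chosen after seeing the data, 712 and 713, with *Cabp2* at 0.095. Leaving out 1 library gave 584 to 1497 higher and 838 to 1566 lower. Against *Ucma*-bearing cells (121 and 164), DESeq2 called 22 and 34, thinning 25 and 38, no filter on low counts 216 higher, at least 10 UMIs in every sum 58 lower, and *Epcam*-bearing *Ucma* cells, chosen after seeing the data, 73 lower. Leaving out 1 library gave 6 to 187 higher and 10 to 241 lower, the fewest without P28 replicate 1. Against *Slc26a4*-bearing cells (798 and 666), DESeq2 called 320 and 158, edgeR without TMM 519 and 1767, and thinning 330 and 263.

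Without the replicate block, which pairs the sums of a library, the counts were 703 and 830 against all other barcodes, 291 and 596 against *Sox2*-bearing cells, and 0 and 0 against *Ucma*-bearing cells, and 45, 6 and 21 named genes lost their calls.

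The share of gated barcodes was 7.29% at P14 under the limits of the study's methods. A gate of 3 of the 5 genes gave 4.87%, 1.27% and 0.878% in P14, P28 replicate 1 and P28 replicate 2, thinning before the gate 4.23%, 1.42% and 1.09%, and a mitochondrial limit of 30% 2.71% and 1.83% in the P28 libraries. Between ages, 164 genes were lower at P14 with *Malat1* and the genes of mitochondria, ribosomal proteins and globins left out of the CPM total and the count. Of the log2 ratios between ages of the 6 highest and 6 lowest genes, 33 moved beyond counting error over the alternatives and 11 did not, and none changed sign. Thinning moved 11 of these 12. The P14 level rests on 1 library, and levels near 10 CPM rest on few UMIs.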

Other observations

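Of 16 keratin and cytoskeleton genes, 5 were higher in the gated cells than in all other barcodes and 3 were lower. Their median log2 fold change was 0.44 (−0.11 over all genes). Of all genes, 13.1% were higher and 18% lower, so the share of the list that was lower was near that of all genes. *Krt19*, a keratin of simple epithelia, stood at 82.1 CPM at P14 and at 51.0 and 56.5 CPM at P28, against 24.6, 20.1 and 14.8 CPM (1.99, edgeR's quasi-likelihood test). *Ezr*, the membrane linker ezrin (1.67), and *Anxa2*, a membrane-binding annexin (325, 381 and 375 CPM, against 149, 171 and 162; 1.49), were also higher. *Vim*, vimentin (−1.93), and *S100b*, a calcium-binding protein (−1.64), were lower. Without TMM scaling the counts were 3 higher and 5 lower (955 and 3980 of all 13659 genes). Against barcodes with an *Epcam* UMI they were 4 and 4 (8.08% and 9.78% of all genes), with *S100b* (−0.71) not called.

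Of 17 immediate early and heat shock genes, *Ier2* was higher (0.73) and 5 were lower, among them *Fos* (−1.77) and *Egr1* (−1.39), with a median of −0.66. Of all genes, 13.1% were higher and 18% lower. Without TMM scaling none of the list was higher and 8 were lower (955 and 3980 of all 13659 genes). Against barcodes with an *Epcam* UMI none of 15 was higher and 1 was lower (8.08% and 9.78% of all genes), with *Ier2*, *Fos* and *Egr1* not called. These genes can respond to tissue dissociation, and its part was not tested.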
